A study of Mus musculus with 2 samples.

Results

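Osteoclast genes were followed through 2 spatial transcriptomic libraries of mouse tissue, an assay that captures the RNA of a section on a grid of spots with known barcodes, each spot holding several cells or part of one. The set held 10 of the 19465 genes listed in both libraries, taken by symbol: Acp5, Ctsk, Mmp9 and Atp6v0d2 of bone resorption, Ocstamp and Dcstamp of cell fusion, the receptors Calcr, Oscar and Itgb3, and the transcription factor gene Nfatc1. All animals were nude mice, per the labels. The group called flat carried a flat implant and gave 1 library, and the group called micropillar carried an implant with small posts on its surface and gave the other. Both were formalin-fixed, paraffin-embedded sections, and the tissue label was bone. Nude mice lack a functional thymus and so most T cells, in both groups alike. The sources used here do not give the number, age or sex of the mice, the implant material or site, or the time after implantation. The series title places the comparison in a study of surface topography, nuclear shape, secreted factors and bone regeneration. Since each group was 1 library, groups could not be tested against each other, no p-value is given, and every interval is a 95% interval for counting error only.

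Osteoclasts are large cells with several nuclei that form by fusion of macrophage-lineage precursors on bone. They form in response to the cytokines M-CSF and RANKL, which act through the receptors Csf1r and RANK. RANK signalling, together with immune receptors that signal through the adaptors Tyrobp and Fcer1g, induces Nfatc1, the transcription factor that turns on much of the mature programme. The mature cell attaches to bone through the integrin that contains Itgb3, pumps acid onto the mineral and secretes proteases that digest the collagen left behind. Several of the genes have other known sources: Ctsk is also made by fibroblasts, Acp5 by macrophages, Mmp9 by granulocytes, Itgb3 by megakaryocytes, Nfatc1 by lymphocytes and hair follicle stem cells, and Calcr by neurons of the hypothalamus.

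Promoter sequences are shown for 3 members that the results set apart, Acp5 and Ctsk because they were the pair seen together in the most micropillar spots and Calcr because it lay in other tissue. Each line gives 240 bases that end 10 bases before a RefSeq transcript start in GRCm38.p6, 5′ to 3′ on the strand of the gene, and for the genes with several listed starts (3 for Acp5, 2 for Calcr) the one farthest upstream. Capitals mark GGAAA, the core letters bound by NFAT factors, or TTTCC, the same letters on the other strand.
Acp5, chr9:22135757-22135996, minus strand: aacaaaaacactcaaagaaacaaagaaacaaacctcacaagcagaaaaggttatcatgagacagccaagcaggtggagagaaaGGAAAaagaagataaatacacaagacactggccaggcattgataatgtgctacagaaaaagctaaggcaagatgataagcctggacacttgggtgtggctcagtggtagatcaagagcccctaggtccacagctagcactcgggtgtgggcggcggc
Ctsk, chr3:95498960-95499199, plus strand: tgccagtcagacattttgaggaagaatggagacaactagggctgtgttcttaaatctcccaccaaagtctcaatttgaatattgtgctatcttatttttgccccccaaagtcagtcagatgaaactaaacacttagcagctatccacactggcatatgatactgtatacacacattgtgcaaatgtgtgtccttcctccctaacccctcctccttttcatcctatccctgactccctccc
Calcr, chr6:3764724-3764963, minus strand: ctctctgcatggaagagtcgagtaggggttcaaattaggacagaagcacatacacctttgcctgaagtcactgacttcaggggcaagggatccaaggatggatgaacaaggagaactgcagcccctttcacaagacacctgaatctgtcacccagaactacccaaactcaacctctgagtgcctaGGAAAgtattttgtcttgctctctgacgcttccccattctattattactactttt
The Acp5 and Calcr windows each held 1 GGAAA on the gene's strand and the Ctsk window held none on either strand. Of 32851 promoter windows of this length, 54.1% held GGAAA on 1 strand or the other, so such a match is common. The letters GAGGAA, a core of the PU.1 motif, occurred once on each strand of the Ctsk window and in 22.3% of all windows. No match to TGANTCA (AP-1, 6.58% of all windows) or CATGTG (MITF, 11.9%), on either strand, or to TATAAA on the gene's strand, was found in the 3 windows. A match describes letters in this window and is not a measured binding site. The starts used lie 5617 bases (Acp5), 1625 bases (Ctsk) and 11739 bases (Calcr) from the first annotated coding base. Which start was active in these cells is not known from the counts, so a window need not be the promoter used in osteoclasts. The Acp5 window overlaps the annotated gene 6530413G14Rik.

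In mm10 with GENCODE M21, Acp5 spans chr9:22126727-22135711, Ctsk chr3:95499256-95509362, Mmp9 chr2:164940780-164955850, Atp6v0d2 chr4:19876841-19922605 and Calcr chr6:3685680-3764714. The deposited values are UMI counts per gene as a whole, so exon, intron and UTR reads are not separated. Spots with at least 100 UMIs were used, 2681 of 3161 in the flat library (2263345 UMIs, median 602 per spot) and 3064 of 3303 in the micropillar library (3173632 UMIs, median 831). The libraries shared 2135 barcodes, which name grid positions. Levels are in CPM, counts per 1e6 UMIs of the spots summed. Levels of different genes were not compared with each other, since the sources used here give neither the number of probes nor the length captured per gene.

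Most of the RNA did not come from bone. Spots were placed in the tissue whose marker list was most enriched over the library mean, a division made after the data had been seen. Neural tissue took 1500 flat and 1819 micropillar spots, with 82.9% and 72.3% of all UMIs. Fibroblast and tendon tissue took 446 flat spots (16.6%) and 500 micropillar spots (16.3%), but 5.35% and 10.8% of the UMIs, with a median of 229 and 467 UMIs per spot. Of the 9 bone marker genes 8 were listed (Bglap2 was not), with 342 flat and 566 micropillar UMIs. Bglap, the osteocalcin gene, whose near-identical neighbours may share its reads, gave 294 and 483 of these, and Ibsp, which encodes bone sialoprotein, had 0 and 9. By these markers most of each section goes against the tissue label, and what else was sectioned could not be settled from the files. Every value below, those of bone-marker spots and those that compare the libraries included, carries that doubt.

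All 10 genes were detected in both libraries, with 296 flat and 536 micropillar UMIs, or 131 CPM (116 to 147) and 169 CPM (155 to 184). The 4 resorption genes gave 79.4% and 84.9% of these UMIs. In the flat library 229 of 2681 spots (8.54%) held a UMI of any member and in the micropillar library 364 of 3064 (11.9%). After thinning each spot to 250 UMIs, which left out shallower spots and kept 2028 and 2733, these shares were 4.64% (3.76 to 5.64) and 4.90% (4.12 to 5.78).

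**Figure D1:**
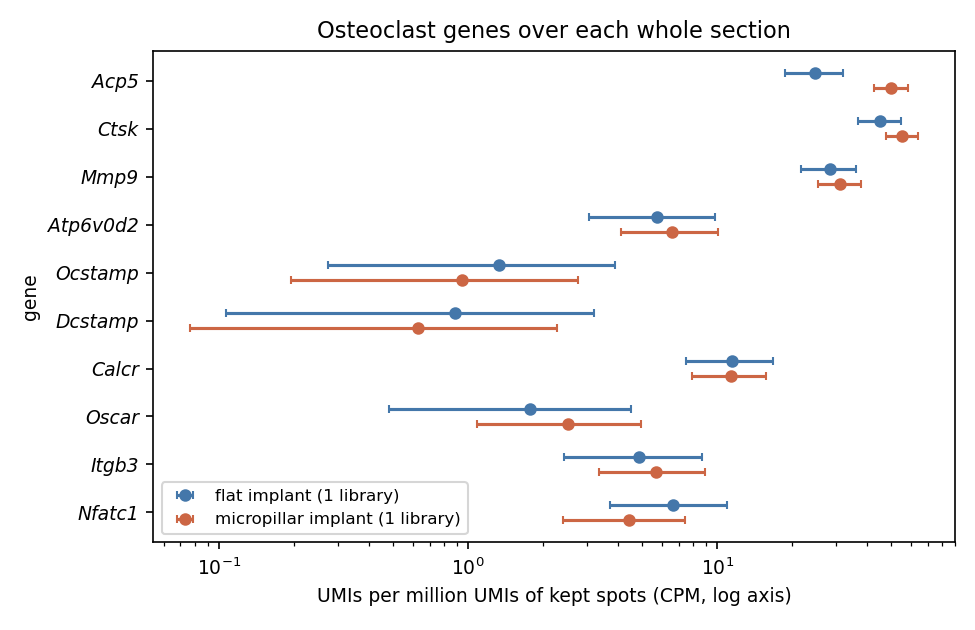
Level of each osteoclast gene over all kept spots of each library, in CPM on a log axis, with exact Poisson 95% intervals for counting error and 1 library per group. Acp5 is the member whose intervals lie apart, at 24.7 CPM (flat) and 50.1 CPM (micropillar), while Ocstamp and Dcstamp rest on 2 or 3 UMIs per library.

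Acp5 encodes tartrate-resistant acid phosphatase, the classic enzyme stain for osteoclasts. It had 56 UMIs in 52 flat spots and 159 UMIs in 128 micropillar spots, or 24.7 CPM (18.7 to 32.1) and 50.1 CPM (42.6 to 58.5). The 2 intervals did not overlap, and no flat spot held more than 2 UMIs while 1 or more micropillar spots held 5. The maximum per spot was not adjusted for depth. With spots thinned to 250 UMIs, Acp5 was in 1.085% of flat (0.681 to 1.64) and 1.65% of micropillar spots (1.20 to 2.20). These shares had intervals that overlapped. Of 8 members compared, Acp5 was the 1 whose ratio of micropillar over flat had an interval above no difference, beside 12.3% of 13337 genes. Ctsk encodes cathepsin K, the protease that cleaves bone collagen. It had 102 UMIs in 90 flat spots and 176 in 151 micropillar spots, or 45.1 CPM (36.8 to 54.7) and 55.5 CPM (47.6 to 64.3), with intervals that overlapped.

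Mmp9, the gene of a secreted gelatinase, had 64 UMIs in 52 flat spots and 99 in 82 micropillar spots, or 28.3 CPM (21.8 to 36.1) and 31.2 CPM (25.4 to 38.0). Atp6v0d2 encodes a subunit of the vacuolar proton pump that also takes part in fusion of precursors, and it had 13 flat and 21 micropillar UMIs, or 5.74 CPM (3.06 to 9.82) and 6.62 CPM (4.10 to 10.1). Neither gene stood apart between the libraries.

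The fusion genes were close to the detection limit. Ocstamp had 3 UMIs in each library and Dcstamp 2 in each, and neither reached more than 1 UMI in a spot. A level of 3 counts, 1.33 CPM for flat and 0.945 CPM for micropillar, is the lowest that this depth could be counted on to show, so no fold is given for either gene.

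Among the receptors, Calcr, which encodes the calcitonin receptor, had 26 flat and 36 micropillar UMIs (11.5 and 11.3 CPM). Itgb3, the gene of integrin beta 3, had 11 and 18 UMIs (4.86 and 5.67 CPM), and Oscar, an immune-type receptor for collagen, had 4 and 8 (1.77 and 2.52 CPM). Nfatc1 had 15 and 14 UMIs (6.63 and 4.41 CPM). The intervals of each of these genes overlapped between the libraries.

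By the tissue division above, the resorption genes lay mainly outside neural tissue. Of their UMIs, 54.5% (flat) and 63.7% (micropillar) were in spots of fibroblast and tendon tissue, where they stood at 1057 CPM (882 to 1257) and 844 CPM (749 to 946). This was 21.2-fold (16.3 to 27.6) and 14.5-fold (11.9 to 17.6) the level of all other spots. The division had no class of its own for bone, marrow or macrophages. Bone markers were also higher in fibroblast and tendon tissue than in all other spots, at 13.5-fold (flat) and 6.94-fold (micropillar). Granulocyte markers were at 16.9-fold and 14.4-fold there, and macrophage markers at 11.2-fold and 6.41-fold. In neural tissue the 4 resorption genes were at 18.7 CPM (13.0 to 26.0) and 28.8 CPM (22.3 to 36.6), and in epidermis and hair at 234 and 196 CPM. A spot could hold markers of several tissues. Neuron-marker spots, with at least 2 UMIs of that list, held 13.2% (flat) and 38.7% (micropillar) of the resorption UMIs. They held 78.0% and 82.9% of all UMIs. Epidermis and hair marker spots held 22.1% and 40.7% of the resorption UMIs, beside 11.2% and 30.2% of all UMIs.

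By gene, fibroblast and tendon tissue held 28 of 56 flat and 90 of 159 micropillar Acp5 UMIs, and 61 of 102 and 115 of 176 Ctsk UMIs. It held 30 of 64 and 67 of 99 Mmp9 UMIs, and 9 of 13 and 18 of 21 Atp6v0d2 UMIs. Each of the 4 genes was at least 10-fold more abundant there than in the remaining spots, from 10.7-fold for Acp5 in the micropillar library (7.76 to 14.9) to 49.4-fold for Atp6v0d2 in the same library (14.4 to 262). Thinned to 250 UMIs, 39 of 192 flat spots of this tissue (20.3%) and 88 of 393 micropillar spots (22.4%) held a resorption UMI, against 12 of 1453 (0.826%) and 10 of 1761 (0.568%) neural spots, whose share serves as the background. A spot contains several cells, so fewer cells of a type and less RNA per cell cannot be told apart in any of these values.

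Calcr showed the opposite pattern. All 26 flat UMIs and 33 of 36 micropillar UMIs were in neural tissue, which held 82.9% and 72.3% of all UMIs. Spots with at least 2 UMIs of the hypothalamic peptide genes Avp and Oxt, 158 flat and 412 micropillar spots, held 19 of 26 and 26 of 36 Calcr UMIs. The level there was 129 CPM and 37.3 CPM, 39.1-fold (15.7 to 110) and 9.24-fold (4.31 to 21.5) that of other spots. Of 7 members with at least 20 UMIs over both libraries, Calcr alone was at least 2-fold higher in these spots in both libraries, beside 1.88% of 12143 genes, while Mmp9 and Atp6v0d2 were the 2 at least 2-fold lower in both, beside 5.25%. Atp6v0d2 had no UMI in these spots, which allowed a fold of up to 4.72 (flat) and 0.683 (micropillar), and Mmp9 had 2 flat and 11 micropillar UMIs, which allowed up to 1.75 and 0.835. In spots without an Avp or Oxt UMI, Calcr was at 2.61 CPM (0.846 to 6.08) for flat and 3.44 CPM (1.39 to 7.10) for micropillar. Bone-marker spots held no Calcr UMI in either library.

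**Figure D2:**
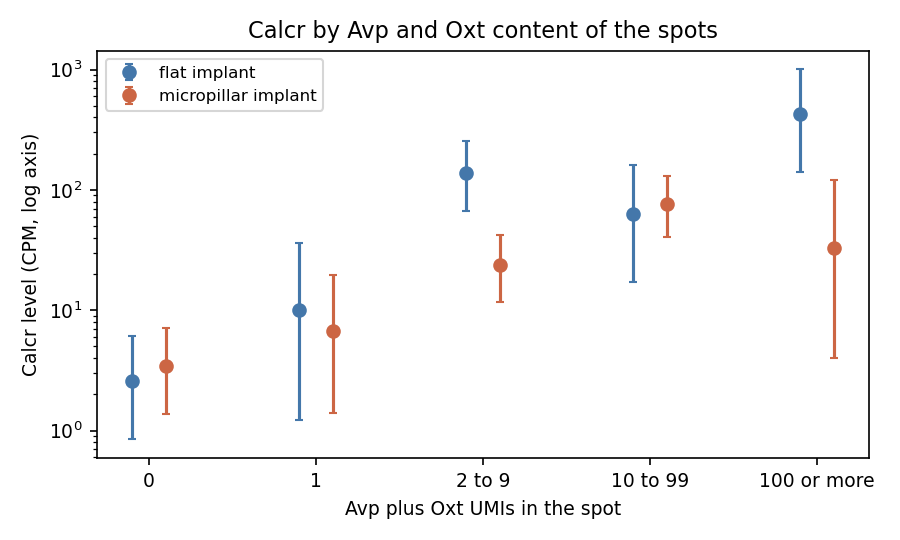
Calcr level in CPM (log axis) in spots grouped by their number of Avp plus Oxt UMIs, for each library, with exact Poisson 95% intervals for counting error. Calcr was at 2.61 and 3.44 CPM in spots with none and at 139 and 23.7 CPM in spots with 2 to 9, and the highest group rests on 5 and 2 Calcr UMIs.

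Oscar, on few UMIs, had 3 of 4 flat and 7 of 8 micropillar UMIs in neural tissue. That tissue held 82.9% and 72.3% of all UMIs. The Oscar level there was 0.619-fold (0.0497 to 32.5) and 2.68-fold (0.345 to 121) that of the remaining spots. Itgb3 had 6 of 11 and 9 of 18 UMIs there, at 0.248-fold (0.0630 to 1.03) and 0.383-fold (0.135 to 1.09). In fibroblast and tendon tissue Itgb3 was at 14.75-fold (3.56 to 58.0) and 1.65-fold (0.31 to 5.82). Nfatc1 had 6 of 15 flat and 9 of 14 micropillar UMIs in fibroblast and tendon tissue and 6 and 3 in epidermis and hair.

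**Figure D3:**
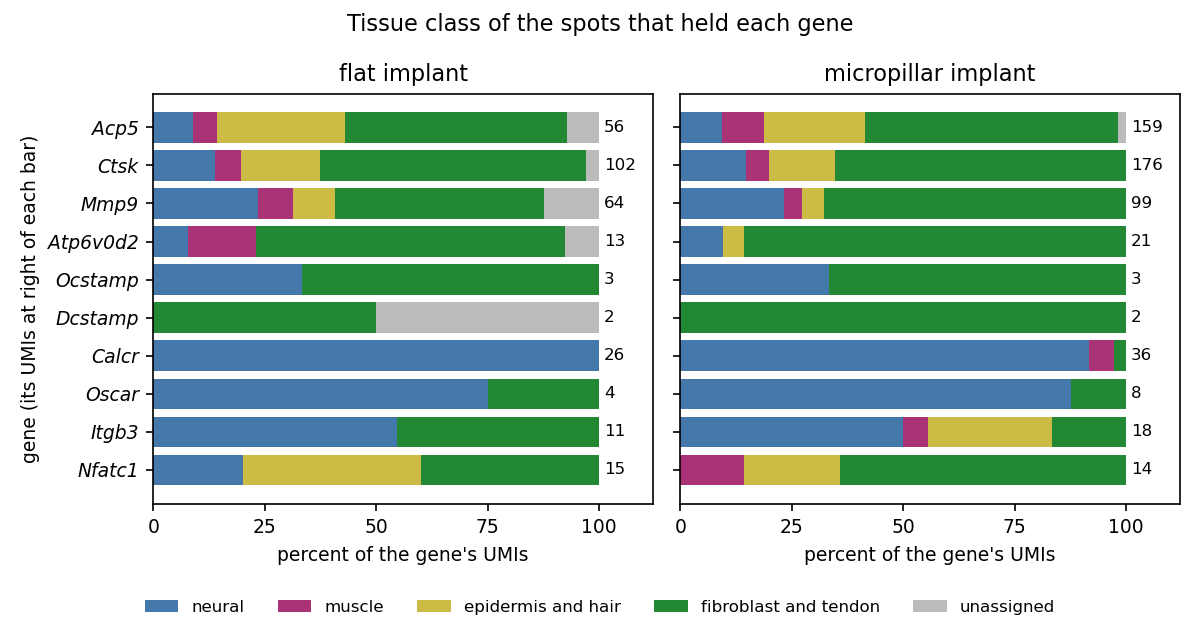
Share of each gene's UMIs by tissue of the spot, in percent, with the gene's UMI count at the right of each bar, for the flat (left) and the micropillar (right) library. Fibroblast and tendon is the largest class in each bar of the 4 resorption genes, from 46.9% for Mmp9 in the flat library to 85.7% for Atp6v0d2 in the micropillar library, and the Calcr bars are mostly neural.

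Overlap with bone was measured in spots with at least 2 UMIs of the bone markers, 63 flat spots (26278 UMIs) and 83 micropillar spots (103960 UMIs). Of 7 members with at least 20 UMIs, 4 were at least 2-fold higher there than in other spots in both libraries, beside 5.52% of 12142 genes, and these were the 4 resorption genes. Calcr, at 0 UMIs there, was the 1 member at least 2-fold lower in both, beside 13.8%, although the intervals allowed a fold of up to 13.0 and 3.19. The members' median was 1.91 on the log2 scale (mean of both libraries), against -0.69 over all genes.

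Acp5 had 8 of 56 flat UMIs in bone-marker spots and 27 of 159 micropillar UMIs, a fold of 14.2 (5.80 to 30.3) and 6.04 (3.84 to 9.19). Mmp9 had 12 of 64 and 19 of 99, a fold of 19.7 (9.55 to 37.3) and 7.01 (4.01 to 11.7). Ctsk had 4 of 102 and 22 of 176, a fold of 3.48 (0.928 to 9.18) and 4.22 (2.57 to 6.62), so the flat interval included no difference. Atp6v0d2 rested on 1 and 4 UMIs there, a fold of 7.09 (0.166 to 48.0) and 6.95 (1.70 to 21.3). The size of these folds moved with the bone call. With 1 UMI as the threshold the flat fold was 3.15 for Acp5 and 5.04 for Mmp9. With the call made after thinning to 250 UMIs Acp5 was at 29.7-fold and 14.9-fold, and micropillar Mmp9 was at 28.7-fold. Atp6v0d2 then had no UMI in the flat bone-marker spots, as also with 3 UMIs as the threshold, and was at 28.3-fold in the micropillar library. Bone-marker spots held 1.16% (flat) and 3.28% (micropillar) of all UMIs. Most UMIs of each member lay outside them, which so small a set makes likely for any gene.

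Inside fibroblast and tendon tissue the bone overlap was smaller. There 33 flat and 45 micropillar bone-marker spots were set against 413 and 455 other spots of the same tissue. The 4 resorption genes together were 1.55-fold (0.842 to 2.67) and 1.29-fold (0.959 to 1.71) the level of those spots, and both intervals included 1. Acp5 was 3.19-fold (1.06 to 8.12) and 1.60-fold (0.948 to 2.60), Mmp9 2.34-fold (0.700 to 6.23) and 1.46-fold (0.776 to 2.60), and Ctsk 0.606-fold (0.121 to 1.86) and 0.978-fold (0.572 to 1.60). Of the 4 members that could be counted, 0 were at least 2-fold higher in both libraries, beside 0.847% of 5430 genes.

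**Figure D4:**
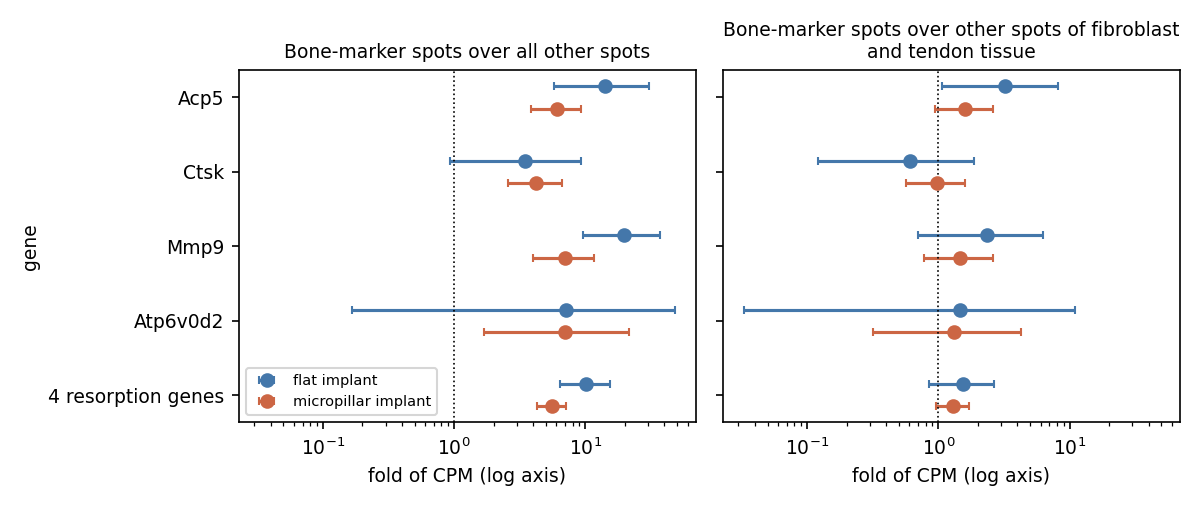
Fold of CPM between bone-marker spots and all other spots (left) and between bone-marker and other spots of fibroblast and tendon tissue (right), on a log axis, with 95% intervals for counting error; the dotted line marks 1. For the 4 resorption genes together the fold was 10.1 and 5.55 on the left and 1.55 and 1.29 on the right.

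Marrow was followed by granulocyte markers, of which 11 were listed, with 274 flat and 409 micropillar UMIs and with Chil3 and Mmp8 at 0 in both libraries. Only 35 flat and 41 micropillar spots held at least 2 of these UMIs. Mmp9 had 8 of 64 and 12 of 99 UMIs there, a fold of 24.96 (10.3 to 52.7) and 7.92 (3.94 to 14.6), which became 5.96 and 3.55 with 1 UMI as the threshold. In spots with no granulocyte UMI Mmp9 was still at 24.97 CPM (18.8 to 32.5) and 26.2 CPM (20.7 to 32.8). Acp5 had 1 and 13 UMIs in the granulocyte spots, a fold of 3.18 (0.0790 to 18.5) and 5.11 (2.66 to 9.02). These 2 of 7 members were at least 2-fold higher in both libraries, beside 4.48% of 12138 genes, and inside fibroblast and tendon tissue 0 of 4 were, beside 1.64%. Calcr and Itgb3, with no UMI in these spots, were the 2 of 7 at least 2-fold lower, beside 23.4%, and at this depth such a count of 0 still allowed a higher level. Without the bone-marker spots 1 of 7 members was counted, Mmp9, at 24.3-fold and 13.95-fold. The share of all genes in that setting was not computed.

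Macrophage markers moved with the members as well. The 10 markers, which microglia share in part, had 824 flat and 1329 micropillar UMIs, with Cd163 at 1 and 0. In the 157 flat and 264 micropillar spots with at least 2 of these UMIs, 5 of 7 members were at least 2-fold higher in both libraries, beside 6.22% of 12136 genes, and 1, Calcr, was at least 2-fold lower, beside 4% of genes. Acp5 was at 17.1 CPM in flat spots with no macrophage UMI, 33.9 CPM with 1 and 138 CPM with 2 or more, and at 29.3, 67.7 and 178 CPM in the same order in the micropillar library. Inside fibroblast and tendon tissue Acp5 was 2.46-fold (1.06 to 5.54) and 1.13-fold (0.724 to 1.75) higher in macrophage-marker than in other spots, and 0 of 4 members reached 2-fold in both libraries, beside 0.737%. The part of macrophages and granulocytes in the member levels was not tested.

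Spots with several members were few. At least 2 different members were found in 28 of 2681 flat spots (1.04%, 0.695 to 1.51) and in 76 of 3064 micropillar spots (2.48%, 1.96 to 3.10). The flat library had 4 spots with 3 members and none with more, and the micropillar library had 13 with 3 and 1 with at least 4. Fibroblast and tendon tissue held 21 of the 28 and 57 of the 76 spots, 75% in both, against 16.0% and 14.8% of the remaining spots. Neural tissue held 0 of 28 and 8 of 76, against 56.5% and 60.6% of the remaining spots. Neuron-marker spots made up 0 of 28 and 29 of 76 (38.2%), against 48.4% and 64.0% of the remaining spots. Glia-marker spots made up 1 of 28 and 22 of 76 (28.95%), against 41.2% and 56.7%. Without Mmp9 the flat count was 16, and after thinning to 250 UMIs the counts were 9 and 16.

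Bone-marker spots made up 4 of the 28 flat spots with several members (14.3%, 4.03 to 32.7), against 2.22% of the other spots, and 15 of the 76 micropillar spots (19.7%, 11.5 to 30.5), against 2.28%. Granulocyte-marker spots made up 1 of 28 (3.57%) and 10 of 76 (13.2%, 6.49 to 22.9), against 1.28% and 1.04% of the other spots. Macrophage-marker spots made up 7 of 28 (25%) and 27 of 76 (35.5%), against 5.65% and 7.93%. Cartilage-marker spots made up 0 of 28 and 4 of 76 (5.26%, 1.45 to 12.9), the latter against 0.1004% of the other spots. There were 7 of them in the micropillar library, with 3021 UMIs in all, and they held 15 UMIs of the 4 resorption genes, a fold of 35.8 (19.9 to 59.7). The flat library had 1, with 105 UMIs and none of these genes, and the part of cartilage in the result was not tested.

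Of 45 member pairs, 9 were seen together in a flat spot and 17 in a micropillar spot. Acp5 and Ctsk shared 9 flat spots, 17.3% of spots with Acp5 (8.23 to 30.3) against 3.08% of spots without it. In the micropillar library they shared 33 spots, 25.8% (18.5 to 34.3) against 4.02%. Acp5 and Mmp9 shared 9 flat and 20 micropillar spots, and Ctsk and Mmp9 shared 9 and 23. The pairing was also seen inside fibroblast and tendon tissue, where Ctsk was in 7 of 26 flat spots with Acp5 (26.9%, 11.6 to 47.8) against 11.0% of spots without it, and in 24 of 64 micropillar spots (37.5%, 25.7 to 50.5) against 15.6%. Within bone-marker spots Ctsk was in 1 of 8 flat and 9 of 21 micropillar spots with Acp5, against 3 of 55 and 8 of 62 without it. Pairs were counted without thinning, and a deeper spot is more likely to hold both genes. The part of depth in the pairing was not tested.

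The genes whose pattern was most like that of the members were ranked by the smaller of the 2 libraries' log2 fold between spots with several members and all other kept spots. Of 198 genes with at least 10 UMIs in such spots in each library, 87 were at least 2-fold higher there in both. A gene of low level could meet that minimum only where it was high in these spots, so the order is a description of the genes that met it. The 10 highest were Mmp13, Col1a2, Cd300a, Col5a2, Serpinh1, Col3a1, Col6a3, Fn1, Col1a1 and Nfkbia. Mmp13, a collagenase gene that met the minimum exactly in the flat library, had 10 of 42 flat and 18 of 56 micropillar UMIs in these spots, a log2 fold of 5.41 and 3.90. Col1a2, a chain of type I collagen, had 3.42 and 3.001, and Cd300a, an inhibitory receptor of myeloid cells, had 4.21 and 2.97. Serpinh1, the chaperone of collagen folding, had 4.05 and 2.88. Of the 10 genes, 6 encode collagen chains or fibronectin.

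The wider pathway was described by 44 genes, of which 43 were listed (Rac2 was not) and 36 had at least 20 UMIs over both libraries. In bone-marker spots, 8 of the 36 were at least 2-fold higher than elsewhere in both libraries and 1 was lower, beside the 5.52% and 13.8% of all genes given above. By list these were 5 of 9 signalling genes, 1 of 13 transcription factors, 1 of 9 genes of acid secretion and 1 of 5 genes of attachment and fusion. With 1 UMI as the threshold of a bone-marker spot, 3 of the 36 were higher. The share of all genes at that threshold was not computed, so the change in the count cannot be set against it. Inside fibroblast and tendon tissue 25 of the genes had at least 20 UMIs. Of these, 1 was at least 2-fold higher in the bone-marker spots of that tissue in both libraries, beside the 0.847% of genes given above. It was Atp6v1b2, the gene of a proton pump subunit, at 2.93-fold and 2.68-fold, for which no interval is given. Over the section it was at 1.26-fold (0.405 to 2.96) and 1.38-fold (0.892 to 2.04) in bone-marker spots. Another 2 of the 25 were at least 2-fold lower inside the tissue, with no share of all genes given.

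In signalling, Csf1r, the M-CSF receptor, had 364 flat and 502 micropillar UMIs and was 2.65-fold (1.31 to 4.81) and 2.01-fold (1.36 to 2.88) higher in bone-marker spots. Fcer1g, the adaptor that pairs with Oscar, was 10.8-fold (4.16 to 23.9) and 2.38-fold (0.928 to 5.11), and Tyrobp, its fellow adaptor, 5.42-fold (2.13 to 11.5) and 3.58-fold (2.16 to 5.65). The level of these 3 genes in fibroblast and tendon tissue, against the remaining spots, was 7.37-fold and 3.47-fold for Csf1r, 32.2-fold and 10.2-fold for Fcer1g and 23.7-fold and 8.06-fold for Tyrobp. In bone-marker against other spots of that tissue Csf1r was at 0.70-fold and 0.98-fold, Fcer1g at 1.67-fold and 0.72-fold and Tyrobp at 1.37-fold and 0.79-fold. Over the section Csf1, the M-CSF gene, was at 4.26-fold (0.103 to 26.6) and 3.38-fold (0.871 to 9.44) in bone-marker spots, on 1 and 4 UMIs. Trem2, a receptor that pairs with Tyrobp, was at 3.36-fold (0.678 to 10.2) and 3.94-fold (1.63 to 8.27). Src, a kinase needed for the resorbing membrane, was at 0.626-fold (0.0754 to 2.28) and 0.727-fold (0.360 to 1.31). Plcg2, an enzyme downstream of the adaptors, was the gene counted as lower, with no UMI in bone-marker spots of either library out of 14 and 17 (a fold of up to 25.7 and 7.16 was allowed). Tnfsf11, the RANKL gene, had 3 flat and 2 micropillar UMIs in all, and Tnfrsf11a, the gene of its receptor RANK, had 25 and 27, of which 0 and 2 were in bone-marker spots.

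Of the transcription factors, Spi1, which encodes PU.1, was the gene that was higher, on 1 of 6 flat and 6 of 36 micropillar UMIs. Jdp2, which had the most UMIs of the list (251 and 349), was at 1.38-fold (0.373 to 3.58) and 0.871-fold (0.414 to 1.62), Fosl2 at 2.33-fold and 1.81-fold, and Nfkb1 at 0.495-fold and 1.90-fold. In acid secretion, Tcirg1, the osteoclast subunit of the proton pump, was 3.41-fold (0.401 to 13.0) and 2.88-fold (1.20 to 5.95), and Car2, carbonic anhydrase 2, was 1.70-fold (0.774 to 3.26) and 0.564-fold (0.307 to 0.952). In attachment and fusion, Mmp14, a membrane collagenase, was 6.55-fold (1.30 to 20.6) and 4.03-fold (1.76 to 8.12). In fibroblast and tendon tissue Tcirg1 was at 28.3-fold and 8.996-fold and Mmp14 at 39.5-fold and 8.01-fold the remaining spots, and in its bone-marker spots Tcirg1 was at 0.78-fold and 0.55-fold and Mmp14 at 0.87-fold and 1.49-fold. In bone-marker spots over the whole section Cd47 was at 0.918-fold and 1.30-fold, and its receptor gene Sirpa at 0.786-fold and 1.04-fold.

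Over the whole section 8 of the 10 members had at least 10 UMIs and were compared between the libraries on the log2 scale of CPM plus 1. Acp5 was the 1 of 8 that was at least 1.5-fold higher in the micropillar library, beside 10.6% of 13337 genes, and 0 were at least 1.5-fold lower, beside 5.15%. Its log2 ratio was 0.99 (0.56 to 1.44), and its interval was the 1 of 8 that lay above 0, beside 12.3% of genes, while 0 lay below 0, beside 8.47%. Ctsk had 0.29 (-0.06 to 0.65), Mmp9 0.14 (-0.32 to 0.60), Atp6v0d2 0.18 (-0.74 to 1.11), Calcr -0.02 (-0.72 to 0.70), Itgb3 0.19 (-0.79 to 1.18), Oscar 0.35 (-0.94 to 1.53) and Nfatc1 -0.50 (-1.44 to 0.47). The members' median was 0.18, against 0.06 over all genes. Of the 39 pathway genes with at least 10 UMIs, 3 were at least 1.5-fold higher and 3 lower. With every spot weighted equally the members' median was -0.20 and Ctsk was at -0.17. Acp5, at 0.57, then fell short of 1.5-fold (0.585 on the log2 scale), and the 1 of 8 past it was Itgb3 at 0.88, beside 13.8% of genes. Atp6v0d2 at -0.71 and Nfatc1 at -0.76 were the 2 at least 1.5-fold lower, beside 10.2%.

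Inside fibroblast and tendon tissue the ratios of the resorption genes were smaller or had the other sign. Acp5 was at 231 CPM (flat) and 262 CPM (micropillar), which is a log2 ratio of 0.18 (-0.45 to 0.84). Ctsk was at 504 and 335 CPM, a log2 ratio of -0.59 (-1.05 to -0.12), Mmp9 at -0.35 (-0.98 to 0.32), Atp6v0d2 at -0.50 (-1.71 to 0.81) and Nfatc1 at -0.90 (-2.49 to 0.82). The 4 resorption genes together, at 0.46 (0.23 to 0.69) over the section, were at -0.33 (-0.63 to -0.01) in this tissue. Of 5 members with at least 10 UMIs there, 0 were at least 1.5-fold higher, beside 35.1% of 8119 genes, and 2, Ctsk and Nfatc1, were at least 1.5-fold lower, beside 24.7%. Their median was -0.50 against 0.12 over all genes.

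In epidermis and hair Acp5 had a log2 ratio of 0.15 (-0.73 to 1.08), on 16 and 36 UMIs, and the 4 resorption genes together had -0.26 (-0.84 to 0.34). In muscle these 4 had -0.74 (-1.67 to 0.24), and in spots of no tissue list -1.85 (-4.22 to -0.05), on 16 and 3 UMIs. In neural tissue Acp5 had 5 and 15 UMIs and a log2 ratio of 1.04 (-0.20 to 2.22), and the 4 resorption genes had 0.60 (0.01 to 1.20). In bone-marker spots Acp5 had -0.23 (-1.40 to 1.11), Ctsk 0.47 (-1.08 to 2.45) and Mmp9 -1.32 (-2.43 to -0.14). Of these 3 members, 0 were at least 1.5-fold higher in the micropillar library, beside 37% of 3450 genes, and 1, Mmp9, was at least 1.5-fold lower, beside 22.3%. Their median of -0.23 became 0.53 with 1 UMI as the bone-marker threshold.

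**Figure D5:**
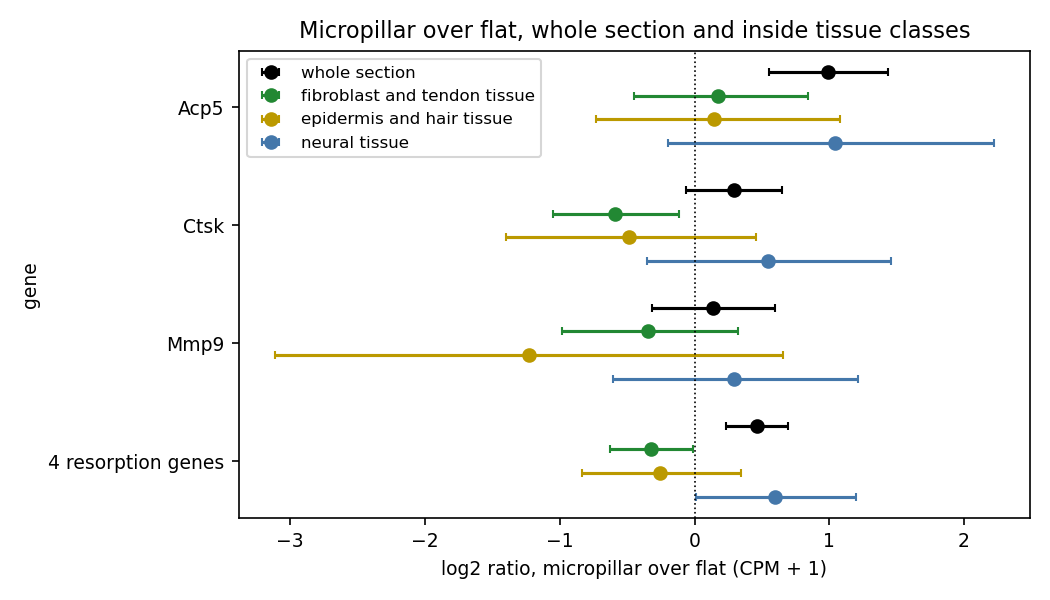
Log2 ratio of micropillar over flat (CPM plus 1) for Acp5, Ctsk, Mmp9 and the 4 resorption genes together, over the whole section and inside 3 tissues, with 95% intervals for counting error; the dotted line marks no difference. For the 4 genes together the ratio is 0.46 over the section and -0.33 inside fibroblast and tendon tissue.

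Depth differed between the libraries in the tissue that held most member UMIs. Of the fibroblast and tendon spots, 36 flat (8.07%) and 232 micropillar spots (46.4%) had at least 500 UMIs. Such spots gave 1.25% of the flat and 9.11% of the micropillar UMIs at that minimum. Over the whole section in spots with at least 500 UMIs, 4 of 8 members were at least 1.5-fold higher in the micropillar library, beside 15.1% of 12934 genes, and 0 were lower, beside 3.62%. Acp5 had a log2 ratio of 1.51, Ctsk 1.16, Atp6v0d2 1.68 and Mmp9 0.586, just past the threshold. Inside the tissue at the same minimum Acp5 had -0.76 (-1.73 to 0.37) and the 4 resorption genes together -1.02 (-1.56 to -0.44). The part of depth and tissue content in the difference over the section was not tested.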

How the data were processed

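The libraries were 10x Genomics spatial sections. The authors deposited raw UMI counts per gene and spot, made with Space Ranger 2.0.1 per the file headers. Cell Ranger 7.2.0 and the mm10 build are named in the submitters' processing notes, so the sources differ on the tool. The sources used here do not give the probe set or alignment settings. No value uses the position of a spot. From the deposited counts, UMIs were summed over spots with at least 100 UMIs and given as CPM. Of 11 symbols on 2 rows, the row with more counts was used. Each library was its own group by its treatment label. No test was made, with 1 library per group. Intervals are exact Poisson (levels) or Clopper-Pearson (shares and ratios) and cover counting error only. Doublets were not called in spots. Marker spots held at least 2 UMIs of a marker list. Tissues were called from the neuron plus glia, muscle, epidermis and hair, and fibroblast and tendon lists, each spot going to the list most enriched over the library mean with at least 2 UMIs. Genes were counted with at least 10 UMIs over both libraries (between libraries) or 20 (between spot sets).

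The members, gene lists and alternatives were chosen with earlier results of these data known, and the tissue division was added after the data had been seen. All members are named. Of each pathway list the text names the gene with most UMIs and those with the highest and lowest mean log2 fold in bone-marker spots among genes with at least 10 UMIs there. Csf1, Trem2, Tyrobp, Plcg2, Spi1, Tnfsf11 and Tnfrsf11a were named outside that rule, after their values were seen. Promoters came from RefSeq (GRCm38.p6), which held 4 of the 10 members, with the Oscar window not shown. Python 3.11.15 (numpy 2.4.6, scipy 1.17.1), R 4.3.3, edgeR 4.0.16 (TMM factors) and DESeq2 1.42.0 (size factors) were used, and the procedure was tested on simulated data. Alternatives covered scaling, weight of spots, depth minimum, pseudocount, thinning, marker thresholds and lists.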

Additional observations from a re-analysis of the deposited data

Results flagged for a closer look

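Spots under the minimum of 100 UMIs, which the main comparisons left out, also held member UMIs. In the flat library 480 such spots held 15 member UMIs of 22950, or 0.0654% (95% interval 0.0366 to 0.108), and a count of 0 would have allowed up to 0.0131%. In the micropillar library 239 such spots held 10 member UMIs of 15345, or 0.0652% (0.0313 to 0.120), with a limit of 0.0196%. In the kept spots the members made up 0.0131% (0.0116 to 0.0147) and 0.0169% (0.0155 to 0.0184) of the UMIs. Mmp9 gave 9 of the 15 flat UMIs and 3 of the 10 micropillar UMIs.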

How the results depend on the processing

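No paired analysis was possible because each group had 1 library, and no library could be left out. Of 46 summary values under the alternatives, 27 stayed within their limits (1.5 times for a count, the interval or the members' middle range otherwise). With the mean of per-spot CPM the members' median ratio of micropillar over flat was -0.20, with 2 members at least 1.5-fold lower (beside 10.2% of genes) and 1 higher (13.8%), Itgb3 in place of Acp5. In spots with at least 500 UMIs it was 0.58, with 4 members at least 1.5-fold higher, beside 15.1% of genes. Inside fibroblast and tendon tissue, added after seeing the data, it was -0.50. There 0 of 5 members were at least 1.5-fold higher in the micropillar library, beside 35.1% of genes. In the bone-marker spots of this tissue 0 of 4 were at least 2-fold higher in both libraries, beside 0.847%. In its marrow-marker spots 0 of 4 were, beside 1.64%. With 4 members, a count of 0 is near such small shares. Acp5 was at -0.76 (-1.73 to 0.37) inside that tissue in spots with at least 500 UMIs, and this interval included no difference. Its ratio over the section lay between 0.57 and 1.51 in all planned settings.

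The share of spots with a member UMI without thinning was 8.54% (flat) and 11.9% (micropillar), and 3.10% and 2.91% after thinning to 100 UMIs. With 1 UMI as bone-marker threshold, 3 pathway genes were higher in place of 8, with no share of all genes computed at that threshold. The members' median ratio of micropillar over flat in bone-marker spots, -0.23, became 0.53 with that threshold and 0.57 with the wider bone list. With 4 UMIs as granulocyte threshold, or without bone-marker spots, 1 member was higher in granulocyte spots. The share of all genes was not computed for either setting. Flat spots with several members numbered 16 without Mmp9, and 9 after thinning to 250 UMIs, where the micropillar library had 16. The causes were not tested. With few UMIs per member, differences of under about 1.5-fold in Acp5 or Ctsk were hard to resolve, and none could be resolved for Ocstamp and Dcstamp.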
